A study of Macaca mulatta with 2 samples.

Results

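The 10 genes described here, PROX1, FLT4, LYVE1, MMRN1, STAB2, RELN, DNASE1L3, KDR, FLT1 and PLVAP, were chosen by name as genes used to tell lymphatic, sinusoidal and blood vessel endothelium apart and to describe the wall of Schlemm's canal. All 10 were present by symbol in both count matrices, out of 24037 features. The study sequenced single cells of the trabecular meshwork of rhesus macaques (Macaca mulatta), the porous tissue through which aqueous humour leaves the eye, with 1 droplet library labelled glaucoma and 1 labelled normal. According to the series text the glaucoma tissue came from monkeys screened for spontaneous primary open-angle glaucoma and the other from healthy controls, with no genetic or drug treatment named. The labels give no age, no sex, no eye pressure, and no number of animals or eyes per library. Both libraries were digested with 5 mg of collagenase for 20 minutes at 37 °C and aimed at 10000 cells each. With 1 library per group there was no test between groups, and the animal, the dissection and the library cannot be told apart from the condition.

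Lymphatic endothelium is specified by the transcription factor PROX1 and grows in response to VEGF-C through the receptor FLT4 (VEGFR3). LYVE1 is a hyaluronan receptor of lymphatic capillaries that some tissue macrophages also carry. Blood vessel endothelium answers VEGF-A through KDR (VEGFR2), and FLT1 (VEGFR1) binds VEGF-A and placental growth factor and acts largely as a decoy. Schlemm's canal, the vessel that drains aqueous humour, arises from veins and takes on PROX1 and FLT4 during development while it is generally described as lacking LYVE1. These statements are background and not results of these data.

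The glaucoma library held 10624 barcodes and 38765808 UMIs (unique molecular identifiers, each standing for 1 captured RNA molecule), and the normal library held 7028 barcodes and 25042621 UMIs. After filtering, 8321 and 5373 cells were kept, with medians of 2747 and 2701 UMIs per cell. The libraries shared 17 barcode sequences, 11 among kept cells and 0 among cells with a PECAM1 UMI. Levels are given as CPM, the UMIs of a gene per 1000000 UMIs of a group of cells, with exact 95% Poisson intervals. Shares of cells have exact 95% Clopper-Pearson intervals, and all intervals cover counting error only. Where 0 were counted, the limit given is not the interval but 3 counts of the total, as a share of cells with a UMI or as CPM. A gene was called higher or lower between 2 groups of cells when the CPM differed at least 2-fold, the exact interval of the ratio excluded 1 and at least 100 UMIs were counted over both. Levels were compared between cells and libraries, not between genes.

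PECAM1, an adhesion protein of all endothelium, marked the cells in which the genes were examined together. A PECAM1 UMI was found in 1336 of the 8321 kept cells of the glaucoma library, 16.1% (15.3 to 16.9), and in 395 of the 5373 of the normal library, 7.35% (6.67 to 8.08). These PECAM1-positive cells were of several kinds. Clustering of all kept cells, the 10 genes included, gave endothelial clusters that the naming rule sorted into 2 classes. The levels of the 10 genes by class are therefore a description and no test. In the first, called CCL21-high endothelium after its leading gene, a lymphatic chemokine, the CCL21 level was 9507 CPM in the glaucoma and 7958 CPM in the normal library. The second, called RNASE1-high endothelium, took the endothelial clusters with fewer than 3 lymphatic-type markers counted. RNASE1 was in no marker set and its level is not given here, so the name is only a label. In this second class CCL21 stood at 21.2 and 8.20 CPM and VWF, PLAT and CLEC3B were among the leading genes. The CCL21-high class had 551 cells in the glaucoma library and only 33 in the normal library, and made up 39.7% (37.0 to 42.4) and 8.35% (5.82 to 11.53) of the PECAM1-positive cells. The RNASE1-high class had 634 and 307 cells, 40.9% and 59.7% of the PECAM1-positive cells. It joined a main cluster of 574 and 249 cells and a smaller one of 60 and 58 cells. The smaller cluster had 0 PLVAP UMIs, and KDR at 120 and 86.3 CPM against 277 and 285 CPM in the main one. Values of this class are thus averages over unlike clusters. A PECAM1 UMI was held by 96.2% and 100% of the CCL21-high and 86.1% and 76.9% of the RNASE1-high cells of the glaucoma and normal library. Macrophage-like cells added 9.51% and 7.85%, since 20.1% and 20.3% of them also held a PECAM1 UMI.

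The label of the list was checked against other lymphatic genes. In the CCL21-high class SEMA3A, SEMA3D, NRP2 and TFPI were among the markers counted besides CCL21. PDPN, the podoplanin gene that defines lymphatic endothelium in many tissues, was at 7.94 CPM (16 UMIs) in the glaucoma library and had 0 UMIs in the normal library, and ACKR1, a venule gene, had 0 and 2 UMIs in all PECAM1-positive cells. The class also held the pan-endothelial markers PECAM1, VWF, CDH5, EMCN, ESAM and EGFL7. It is therefore called by its leading gene, and neither a lymphatic nor a Schlemm's canal name is given to it.

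PROX1 (ENSMMUG00000011914), the transcription factor, was found mainly in the CCL21-high class in the glaucoma library. The CCL21-high cells of the glaucoma library held 49 PROX1 UMIs in 41 of 551 cells, 24.3 CPM (18.0 to 32.1), which was 90.7% of all PROX1 UMIs among the kept cells of that library. In the normal library the class held 4 UMIs in 3 of 33 cells, 44.8 CPM (12.2 to 115). No PROX1 UMI was seen in the 634 and 307 RNASE1-high cells, which by the limit of 3 counts allows a UMI in up to 0.473% and 0.977% of cells. In the normal library the other 20 of the 24 PROX1 UMIs were thinly spread, with 7 in trabecular meshwork-like cells (1.496 CPM), 5 in muscle-like cells (0.964 CPM) and 5 in unnamed clusters. Most of the few normal PROX1 UMIs therefore lay outside endothelium.

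FLT4 (ENSMMUG00000018693), the VEGF-C receptor, was present in both endothelial classes and almost nowhere else. In the CCL21-high class it stood at 164 CPM (147 to 183) in the glaucoma and 257 CPM (163 to 386) in the normal library. In the RNASE1-high class it stood at 52.6 CPM (42.7 to 64.2) and 116 CPM (90.9 to 147). The order CCL21-high over RNASE1-high held in both libraries with intervals that did not overlap, and every other class with at least 20 cells in each library was at or below 7.65 CPM, the value of pericyte-like cells in the glaucoma library. A FLT4 UMI was found in 36.7% and 45.5% of CCL21-high and 13.1% and 18.6% of RNASE1-high cells.

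KDR (ENSMMUG00000012669), the main VEGF-A signalling receptor, also spanned both classes. It measured 238 CPM (217 to 260) in the CCL21-high and 266 CPM (243 to 291) in the RNASE1-high cells of the glaucoma library, neighbours whose intervals overlapped. In the normal library the order was turned, with 448 CPM (320 to 610) in the CCL21-high and 259 CPM (220 to 303) in the RNASE1-high class. Among the other classes with at least 20 cells in each library, stromal fibroblast-like cells came next, at 30.6 CPM (24.0 to 38.4) in the glaucoma and 76.1 CPM (66.6 to 86.6) in the normal library. Muscle-like cells followed in the normal library at 18.3 CPM (14.8 to 22.4), against 4.50 CPM (2.46 to 7.56) in the glaucoma library. The 1105 stromal fibroblast-like cells held 38.0% of all KDR UMIs of the normal library, more than the RNASE1-high endothelium with 26.0%.

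FLT1 (ENSMMUG00000021538), the decoy-type VEGF receptor, divided the 2 endothelial classes. It was at 555 CPM (521 to 590) and 684 CPM (620 to 752) in the RNASE1-high class of the glaucoma and normal library, and at 19.8 CPM (14.2 to 27.0) and 33.6 CPM (6.92 to 98.1) in the CCL21-high class. In the glaucoma library the CCL21-high endothelium had less FLT1 than stromal fibroblast-like cells, at 44.6 CPM (36.6 to 53.8), and than trabecular meshwork-like cells, at 32.3 CPM (29.0 to 35.9). Those last 2 did not overlap with each other, and both stood far below the RNASE1-high class. In the normal library stromal fibroblast-like cells were at 86.0 CPM (75.9 to 97.1) and trabecular meshwork-like cells at 19.0 CPM (15.3 to 23.4), and the interval of the CCL21-high class overlapped both. T or NK cell-like cells, which should lack the gene, held 1 FLT1 UMI in 320 cells and 0 in 112, at median depths of 1349 and 1728 UMIs.

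LYVE1 (ENSMMUG00000015790), the hyaluronan receptor, was not found in endothelium. It had 0 UMIs in all 551 and 33 CCL21-high cells and in all 634 and 307 RNASE1-high cells, which by the limit of 3 counts allows a share with a UMI of up to 0.544% and 9.09% of the first class and 0.473% and 0.977% of the second in the glaucoma and normal library. Macrophage-like cells held 69 of 71 LYVE1 UMIs of the glaucoma library, 26.1 CPM (20.3 to 33.1), and 30 of 40 of the normal library, 42.6 CPM (28.8 to 60.9). The other 10 normal UMIs were in muscle-like cells, 1.93 CPM. The 12 glaucoma and 4 normal PECAM1-positive cells with a LYVE1 UMI were all macrophage-like.

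STAB2 (ENSMMUG00000006347), stabilin-2, a scavenger receptor that clears hyaluronan in sinusoids and lymph nodes, was counted mostly in the CCL21-high class. There it measured 49.6 CPM (40.4 to 60.3) in the glaucoma and 134 CPM (69.4 to 235) in the normal library. In the RNASE1-high class 9 UMIs were counted in the glaucoma library, 4.88 CPM, and 0 in the normal library. A STAB2 UMI was seen in 13.2% and 27.3% of CCL21-high cells.

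MMRN1 (ENSMMUG00000022003), multimerin-1, a secreted and stored glycoprotein of endothelium and platelets, was counted almost entirely in 1 class. In the CCL21-high class it stood at 604 CPM (571 to 639) in the glaucoma and 929 CPM (740 to 1152) in the normal library, and 68.4% and 69.7% of the cells held a UMI. The RNASE1-high class had 3.80 CPM (1.53 to 7.83) and 11.47 CPM (4.61 to 23.6), from 7 UMIs in each library. The CCL21-high class held 96.8% and 91.2% of all MMRN1 UMIs.

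DNASE1L3 (ENSMMUG00000011235), a secreted nuclease that digests chromatin and is made by sinusoidal endothelium and macrophages, followed the same division. Its level was 830 CPM (791 to 871) and 873 CPM (690 to 1090) in the CCL21-high class, and 16.8 CPM (11.4 to 23.9) and 8.20 CPM (2.66 to 19.1) in the RNASE1-high class. Macrophage-like cells were at 4.54 CPM and 9.95 CPM, with intervals that overlapped those of the RNASE1-high class in the normal library only. A UMI was found in 64.2% of glaucoma and 48.5% of normal CCL21-high cells.

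RELN (ENSMMUG00000048420), reelin, a secreted guidance protein also made by lymphatic endothelium, was counted mostly in Schwann cells, the glia of peripheral nerves. Myelinating Schwann cell-like cells measured 202 CPM (160 to 251) in the glaucoma and 245 CPM (205 to 290) in the normal library, and held 52.9% and 69.1% of all RELN UMIs. The CCL21-high class of the glaucoma library came next at 17.9 CPM (12.5 to 24.7), overlapping with non-myelinating Schwann cell-like cells at 12.3 CPM (6.33 to 21.4). The 33 normal CCL21-high cells held 1 RELN UMI, and the RNASE1-high class held 0 in both libraries.

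PLVAP (ENSMMUG00000002413) encodes the protein of the diaphragms that close endothelial fenestrae and caveolae. It was at 45.0 CPM (35.9 to 55.8) and 45.9 CPM (30.5 to 66.3) in the RNASE1-high class of the glaucoma and normal library. In the CCL21-high class it was at 23.3 CPM (17.1 to 31.0) in the glaucoma library and 100.7 CPM (46.1 to 191) in the normal library, the latter from 9 UMIs in 3 cells. Macrophage-like cells held 10.98 CPM (7.35 to 15.8) and 12.8 CPM (5.85 to 24.3). Unlike MMRN1, DNASE1L3 and FLT1, PLVAP had no order of the 2 classes that held in both libraries.

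**Figure D1:**
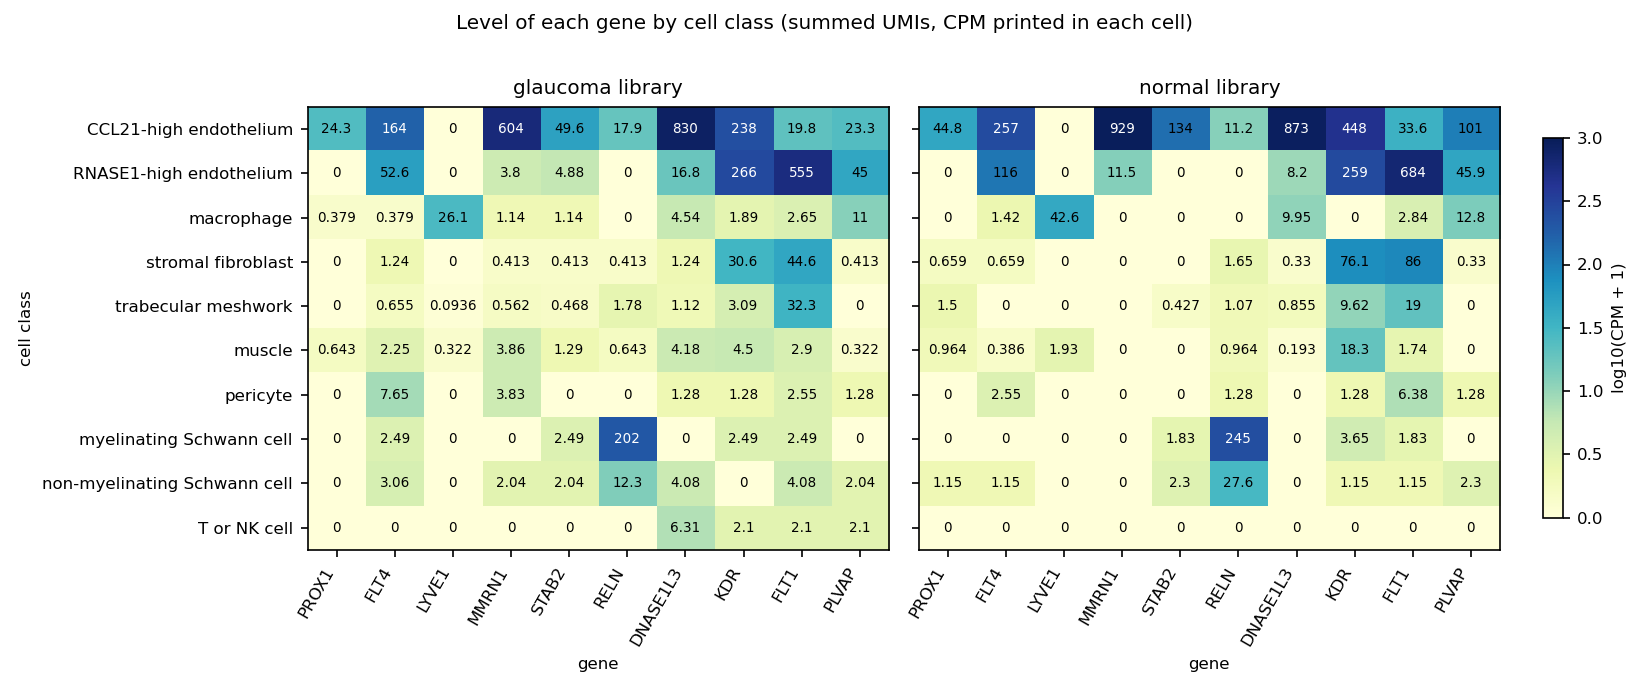
Levels of the 10 genes (columns) in 10 cell classes (rows) of the glaucoma library (left) and the normal library (right); each square prints the CPM of the summed UMIs and its colour is log10(CPM + 1). PROX1, MMRN1, STAB2 and DNASE1L3 are darkest in the CCL21-high row, FLT1 in the RNASE1-high row, LYVE1 in the macrophage row and RELN in the myelinating Schwann cell row.

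Between the libraries, PECAM1-positive cells of the glaucoma library had more MMRN1, STAB2 and DNASE1L3. MMRN1 was at 240 CPM against 60.7 CPM, a log2 ratio of glaucoma over normal of 1.98 (95% counting interval 1.67 to 2.31). DNASE1L3 was at 332 CPM against 60.7 CPM, a log2 ratio of 2.45 (2.14 to 2.78). STAB2 was at 22.2 CPM against 9.77 CPM, a log2 ratio of 1.19 (0.38 to 2.10), a call that was lost with every deposited barcode (0.86), with at least 2 PECAM1 UMIs (0.84) and in thinned cells (0.58). Of the 10 genes 7 had at least 100 UMIs; these 3 were called higher and 0 lower, where the same rule called 3.87% of 6494 features higher and 5.36% lower. The median log2 ratio of the 7 genes was 0.48, against -0.04 over all 6494 features.

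The receptors and PLVAP stayed within 2-fold in PECAM1-positive cells. FLT4 was at 81.8 and 61.4 CPM in the glaucoma and normal library, log2 ratio 0.41 (0.08 to 0.76), and KDR at 182 and 131 CPM, 0.48 (0.25 to 0.71). FLT1 was at 194 and 269 CPM, -0.47 (-0.64 to -0.30), and PLVAP at 24.0 and 30.01 CPM, -0.32 (-0.83 to 0.21). PROX1 (50 and 4 UMIs), RELN (39 and 5) and LYVE1 (18 and 4) had too few UMIs to be called. The PECAM1-positive cells of the libraries differed in their makeup, as given above: the CCL21-high share was 39.7% against 8.35%.

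Outside the CCL21-high class, a comparison added after these values were seen, 0 genes were called: MMRN1 and DNASE1L3 had log2 ratios of 1.53 (0.01 to 3.51) and 1.39 (0.36 to 2.59) there, with too few UMIs for the rule. Inside the CCL21-high class none of the 3 was called higher. MMRN1 had a log2 ratio of -0.62 (-0.94 to -0.28), DNASE1L3 of -0.07 (-0.40 to 0.27) and KDR of -0.91 (-1.38 to -0.41). In the normal library 1 cell gave 24 of the 78 DNASE1L3 UMIs of the class (30.8%), so no direction is read from that ratio. STAB2 was called lower at -1.44 (-2.31 to -0.44), where 3.79% of 3218 features were called higher and 4.72% lower. Of 5 genes with enough UMIs, STAB2 was the only one called. It rested on 12 normal UMIs, and without the cell with most STAB2 UMIs in each library it was -1.08 (-2.07 to 0.09) and no longer called. The pooled excess of MMRN1, STAB2 and DNASE1L3 was not seen in the class that holds most of their UMIs, where the normal library had only 33 cells.

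In the RNASE1-high class FLT4 was called lower in the glaucoma library, log2 ratio -1.14 (-1.60 to -0.68), where 1.86% of 3919 features were called higher and 1.63% lower. It was 1 of 4 genes with enough UMIs. KDR was at 0.04 (-0.22 to 0.31), FLT1 at -0.30 (-0.47 to -0.13) and PLVAP at -0.03 (-0.66 to 0.65). The point value of FLT4 was above 0 in the pooled PECAM1-positive cells and below 0 in both endothelial classes, which the plot of log2 ratios in 3 sets of cells shows side by side. With CDH5 in place of PECAM1 as the gate 6 genes were called higher, FLT4, KDR and PLVAP being added at 1.39, 1.39 and 1.07. The share of all features called was not taken for that gate, so the 6 have no background beside them.

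**Figure D2:**
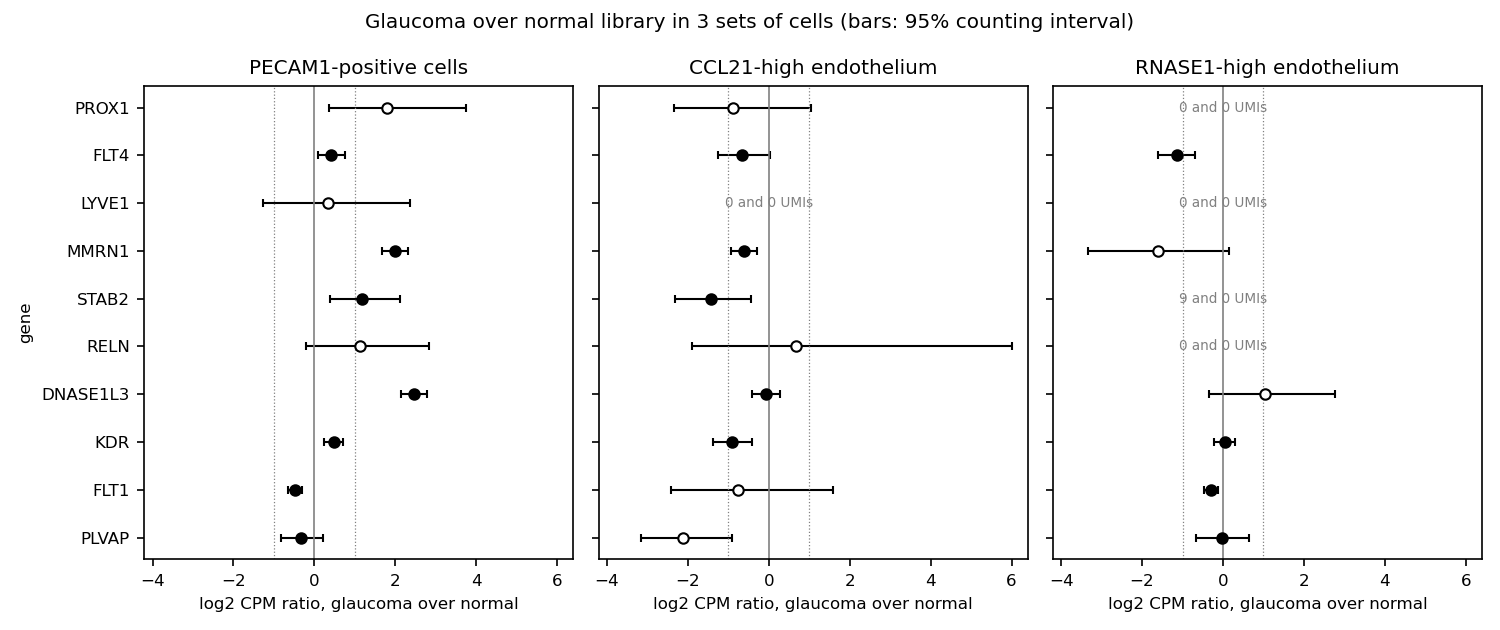
Log2 ratio of CPM, glaucoma over normal library, for each gene in PECAM1-positive cells, CCL21-high endothelium and RNASE1-high endothelium, with 95% counting intervals; open circles have under 100 UMIs over both libraries, dotted lines mark 2-fold and numbers stand where a library had 0 UMIs. MMRN1, STAB2 and DNASE1L3 lie to the right of 1 in PECAM1-positive cells and to the left of 0 in the CCL21-high class, where the interval of DNASE1L3 spans 0.

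Outside endothelium only KDR, FLT1 and RELN reached 100 UMIs in any class with at least 20 cells in each library. Of these KDR was the one called between the libraries, in both cases lower in the glaucoma library. In trabecular meshwork-like cells KDR had too few UMIs to be called (33 and 45), at -1.64 (-2.33 to -0.96). It was called lower in stromal fibroblast-like cells of the glaucoma library, log2 ratio -1.32 (-1.71 to -0.93), where 2.26% of 6243 features were called higher and 7.34% lower. The main cluster of these cells had 53.7 CPM in the glaucoma and 99.5 CPM in the normal library, and with called doublets kept the ratio was -0.94 and no longer called. KDR was also called lower in muscle-like cells, -2.02 (-2.95 to -1.21), where 3.2% of 6438 features were called higher and 3.6% lower. In the muscle cluster that held most of the KDR UMIs, led by MYH11, CHRM3 and ACTA2, the levels were 7.27 and 23.8 CPM. FLT1 in stromal fibroblast-like cells was at -0.95 (-1.29 to -0.62) and was called lower only when the libraries were clustered separately (-1.27) or the 10 genes were left out of the clustering (-1.03). FLT1 in trabecular meshwork-like cells was at 0.76 (0.42 to 1.12) over the class, but in its main cluster the levels were 36.5 CPM in the glaucoma and 64.0 CPM in the normal library, so the direction over the class was opposite to that in its main cluster, which gave 1513 glaucoma but only 166 normal cells.

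Within PECAM1-positive cells, the genes of the CCL21-high class were found in the same cells more often than the product of their shares gives. In the glaucoma library 263 cells held both MMRN1 and DNASE1L3, 2.44 times the expected number (interval 2.15 to 2.75). MMRN1 and FLT1 were both seen in 30 cells where 121 were expected, a ratio of 0.25 (0.17 to 0.35). Of 12 pairs among PROX1, FLT4, MMRN1, STAB2, RELN and DNASE1L3 with at least 5 cells expected, 12 had ratios above 1, with a median of 2.46 and a range from 1.93 for FLT4 with MMRN1 to 3.09 for PROX1 with MMRN1. FLT1 with DNASE1L3 was at 0.34 and with STAB2 at 0.59, whereas with KDR it was at 1.36 and with PLVAP at 1.68. KDR with FLT4, the receptors found in both classes, was at 1.51 (1.29 to 1.76).

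At equal depth MMRN1 with DNASE1L3 moved little, and the ratios of both genes with FLT1 were lower still. Each cell was thinned to 1000 UMIs, which left out 55 of the 1336 cells. MMRN1 with DNASE1L3 was then at 2.58 (2.10 to 3.13), MMRN1 with FLT1 at 0.10 (0.03 to 0.27) and DNASE1L3 with FLT1 at 0.12 (0.04 to 0.27). Only 3 pairs of the lymphatic and sinusoidal genes still had 5 cells expected, at 1.96 to 2.58. All 3 pairs among KDR, FLT1 and PLVAP and 4 of 8 mixed pairs were above 1. In the normal library MMRN1 and FLT1 were both seen in 3 cells where 11.9 were expected, a ratio of 0.25 (0.05 to 0.74), and in 0 thinned cells. KDR with FLT1 was at 1.34 there, close to the glaucoma value. LYVE1 shared no cell with any of the other 9 genes in either library.

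Inside the CCL21-high class the ratios lay nearer to 1. MMRN1 with DNASE1L3 was at 1.09 (0.96 to 1.23) and MMRN1 with FLT1 at 1.27 (0.83 to 1.86) in the glaucoma library. There 13 pairs among the lymphatic and sinusoidal genes ranged from 0.97 to 1.87, with a median of 1.201, and all 12 tested pairs of one such gene with KDR, FLT1 or PLVAP were above 1. Thinned to 1000 UMIs, the first kind of pair ranged from 1.09 to 1.46 and the second kind had a median of 0.99, over 5 pairs each. The low ratios of FLT1 with MMRN1 and DNASE1L3 in PECAM1-positive cells were thus not seen within the class, where only 30 glaucoma cells held an FLT1 UMI.

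**Figure D3:**
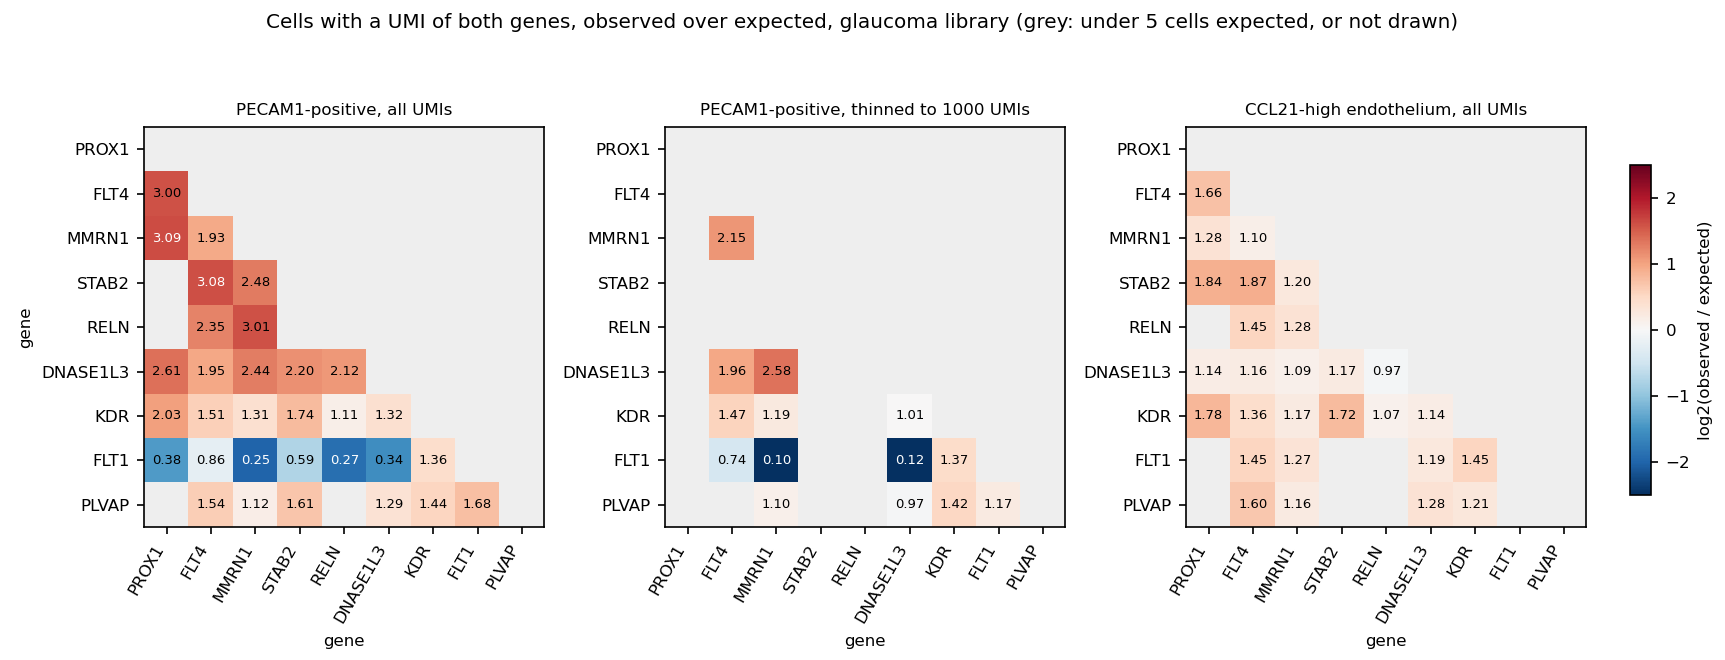
Observed over expected number of cells with a UMI of both genes in the glaucoma library, for PECAM1-positive cells with all UMIs, the same cells thinned to 1000 UMIs, and the CCL21-high endothelium; red is above 1, blue below 1, and grey pairs had under 5 cells expected. The FLT1 row is blue against MMRN1 (0.25) and DNASE1L3 (0.34) in the first panel and not in the third.

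The receptors combined differently in the 2 classes. A KDR UMI without an FLT1 UMI was found in 40.3% (36.2 to 44.5) of the CCL21-high and 12.9% (10.4 to 15.8) of the RNASE1-high cells of the glaucoma library, and in 54.5% (36.4 to 71.9) and 12.1% (8.63 to 16.2) in the normal library. FLT1 without KDR was found in 1.996% and 32.2% of the 2 classes in the glaucoma library, and in 0 of 33 and 38.1% in the normal library. A UMI of both KDR and FLT4 was seen in 21.8% of CCL21-high and 6.94% of RNASE1-high glaucoma cells. Thinned to 1000 UMIs, KDR without FLT1 was in 17.5% of CCL21-high and 14.9% of RNASE1-high glaucoma cells, while FLT1 without KDR was in 0.962% and 32.3%, so at equal depth the intervals of the classes overlapped for KDR without FLT1 in that library. In the normal library thinned KDR without FLT1 was in 35.7% (18.6 to 55.9) of 28 CCL21-high and 14.1% (9.85 to 19.3) of 227 RNASE1-high cells.

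PROX1-positive cells carried both the lymphatic-type genes and KDR. Of the 42 PECAM1-positive cells with a PROX1 UMI in the glaucoma library, 41 were in the CCL21-high class, 37 held MMRN1 (88.1%, 74.4 to 96.0), 33 held KDR (78.6%, 63.2 to 89.7), 31 held DNASE1L3 (73.8%, 58.0 to 86.1) and 26 held FLT4 (61.9%, 45.6 to 76.4). FLT1 was in 5 of them (11.9%, 3.98 to 25.6), against 32.4% (29.8 to 35.0) of the 1294 PROX1-negative cells. Only 37.8% of those PROX1-negative cells were in the CCL21-high class. Over all 551 cells of that class the FLT1 share was 5.44% (3.70 to 7.68), so the PROX1-positive cells did not hold less FLT1 than their class. Of the 42 cells PLVAP was in 3, RELN in 4, STAB2 in 10 and LYVE1 in 0, which allows a share of up to 7.14%. In 32 of the 42 cells (76.2%) a lymphatic-type gene (FLT4, MMRN1 or RELN) was found together with KDR, FLT1 or PLVAP. The PROX1-positive cells were deeper, with a median of 5850.5 UMIs against 2787.5, and thinned to 1000 UMIs only 10 cells kept a PROX1 UMI. Of these 10, 4 (40.0%, 12.2 to 73.8) held such a combination against 5.82% of PROX1-negative cells. All 10 were in the CCL21-high class, against 39.2% of the thinned PROX1-negative cells. MMRN1 was held by 6 of the 10, KDR by 5, FLT4 by 1 and DNASE1L3 by 2 (20.0%, against 18.6%).

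The normal library had 3 PROX1-positive cells. All 3 were in the CCL21-high class and held MMRN1 and DNASE1L3, 2 held FLT4, 2 held KDR and 0 held FLT1. These 3 cells are too few for a contrast of their own.

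Summed levels of several genes met the calling rule between PROX1-positive and PROX1-negative cells over all PECAM1-positive cells. Within the CCL21-high class none of these genes met it, though the intervals of MMRN1 and FLT4 excluded 0. In PROX1-positive against PROX1-negative cells of the glaucoma library MMRN1 was at 810 against 200 CPM, log2 ratio 2.02 (1.82 to 2.21), and FLT4 at 211 against 72.8 CPM, 1.53 (1.14 to 1.91). STAB2 was at 51.2 against 20.2 CPM, 1.34 (0.50 to 2.09), and DNASE1L3 at 723 against 305 CPM, 1.25 (1.04 to 1.44). FLT1 was at 21.1 against 206 CPM, -3.29 (-4.61 to -2.24). So 4 of the other genes were called higher and 1 lower, where 3.51% of 5696 features were called higher and 8.51% lower. Thinned to 1000 UMIs, with 10 PROX1-positive cells, 1 was called higher and 0 lower, and DNASE1L3 turned to -0.81 (-3.86 to 1.05).

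KDR was at 280 against 175 CPM, 0.68 (0.36 to 0.99). Within the CCL21-high class, an addition made after these values were seen, 0 of these genes were called in either direction. The share of all features called was not taken there. MMRN1 was at 0.55 (0.35 to 0.75), FLT4 at 0.48 (0.08 to 0.87), STAB2 at 0.12, DNASE1L3 at -0.18 (-0.39 to 0.01) and FLT1 at 0.17 (-1.25 to 1.37). All but 1 of the PROX1-positive cells were in this class, so the contrast over PECAM1-positive cells also set the class against the other cells.

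**Figure D4:**
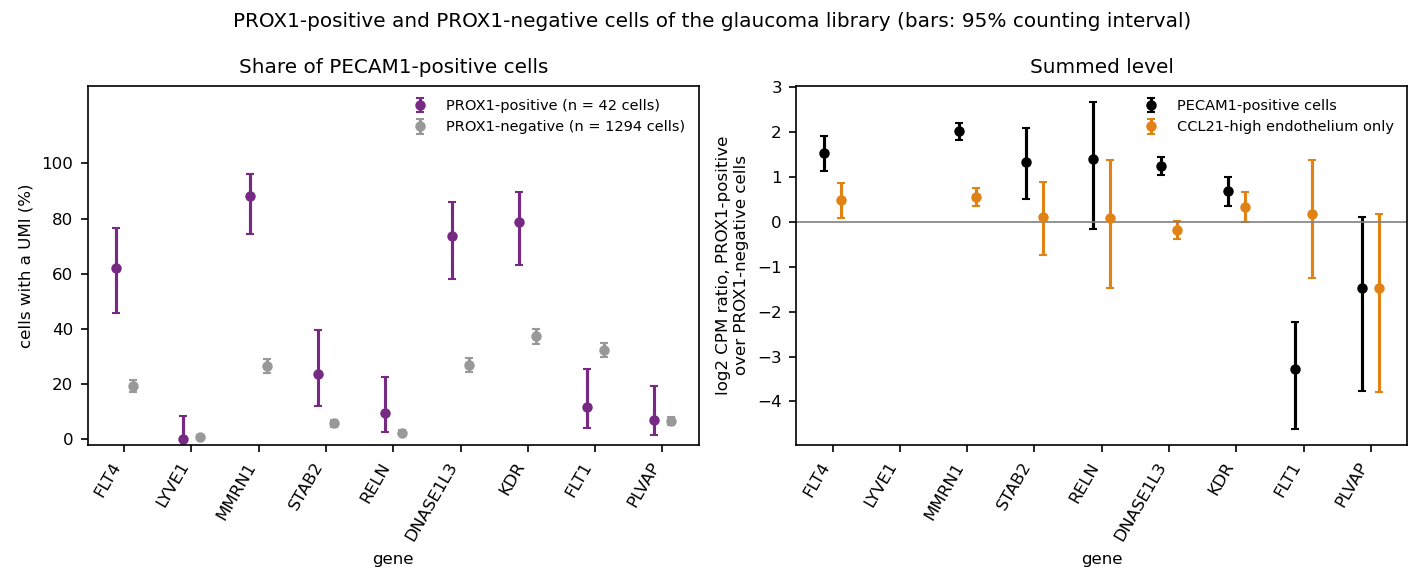
Left, share of PROX1-positive (n = 42) and PROX1-negative (n = 1294) PECAM1-positive cells of the glaucoma library with a UMI of each gene, in percent; right, log2 CPM ratio of PROX1-positive over PROX1-negative cells among all PECAM1-positive cells and within the CCL21-high endothelium. Bars are 95% counting intervals; FLT1 is at -3.29 among PECAM1-positive cells and at 0.17 within the class.

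The endothelial cells of both classes were clustered again with the 10 genes left out, so that the split into sub-clusters rests on other genes. Which cells entered was set by the first clustering, which included the 10 genes. All but 2 of the CCL21-high cells fell into sub-clusters 0 and 4, and both of these held MMRN1 (640 and 569 CPM in the glaucoma library), DNASE1L3 (785 and 865 CPM), FLT4 (136 and 189 CPM), STAB2 (40.9 and 57.1 CPM) and PROX1 (17.8 and 29.97 CPM). FLT1 was at 10.5 CPM (5.03 to 19.3) in sub-cluster 0 and 29.97 CPM (20.5 to 42.3) in sub-cluster 4. Sub-cluster 4 was led by CCL21, EFEMP1 and POSTN, and its cells were deeper, with a median of 5826.5 against 2074 UMIs. The normal library had 19 and 12 cells in them, with MMRN1 at 1076 and 826 CPM.

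The other 4 sub-clusters had FLT1 between 417 and 605 CPM in the glaucoma and between 513 and 726 CPM in the normal library, PROX1, LYVE1 and RELN at 0 and MMRN1 at or below 22.35 CPM. They differed in PLVAP and KDR. Sub-cluster 3, led by FBLN5, GJA5 and other genes of arterial endothelium such as BMX and HEY1, had 0 PLVAP UMIs in 108 glaucoma and 80 normal cells, which by the limit of 3 counts allows up to 12.9 and 23.7 CPM. PLVAP was at 70.1 CPM (46.9 to 100.7) and 63.3 CPM (36.9 to 101.4) in sub-cluster 1, led by GPIHBP1 and VWF, and at 49.1 CPM and 106 CPM in sub-cluster 2. KDR in sub-cluster 3 was at 159 CPM (112 to 219) and 158 CPM (96.6 to 244), below sub-cluster 1 at 317 CPM (265 to 376) and 320 CPM (256 to 396) in both libraries. FLT4 in sub-cluster 3 was at 21.5 CPM (6.98 to 50.2) in the glaucoma and 134 CPM (78.3 to 215) in the normal library. Sub-cluster 5, with 50 cells, was led by the pericyte genes COX4I2, ABCC9, NDUFA4L2 and PDGFRB; whether it holds doublets was not tested. Without it the normal FLT1 levels of these sub-clusters began at 641 CPM.

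**Figure D5:**
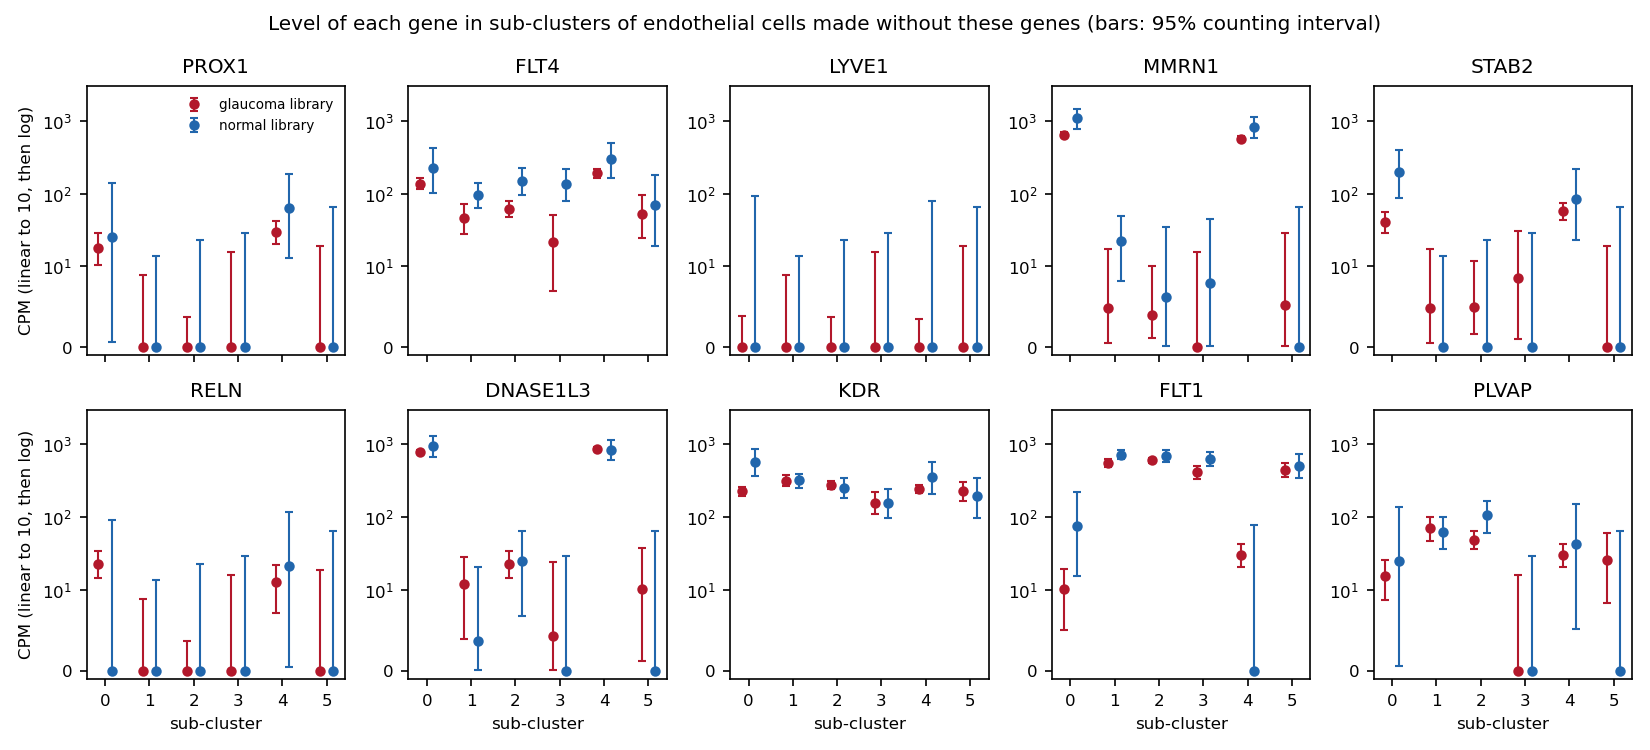
CPM of each gene (linear to 10, then on a log scale) in 6 sub-clusters of endothelial cells made without the 10 genes, in the glaucoma library (red) and the normal library (blue), with 95% counting intervals. MMRN1 and DNASE1L3 stand high in sub-clusters 0 and 4 and FLT1 in the others, PLVAP is at 0 in sub-cluster 3, and LYVE1 is at 0 in all 6.

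Genes with the most similar pattern were sought outside the 10, over the 23 clusters of at least 20 cells, as Pearson r of log2(CPM + 10). This is a description across clusters that share libraries. Among the 10 themselves MMRN1 with DNASE1L3 was at 0.98, PROX1 with MMRN1 at 0.94 and STAB2 with DNASE1L3 at 0.89. Outside the 10, ATCAY and KLHL4 were among the 3 most similar genes for each of PROX1 (r = 0.88 and 0.85), MMRN1 (0.95 and 0.93), STAB2 (0.84 and 0.83) and DNASE1L3 (0.96 and 0.91). FLT4 was most like N4BP3 (0.97) and BCL6B (0.97), KDR like FZD6 (0.91) and FLT1 like CAMKK1 (0.91), ACVRL1 (0.90) and CXCL12 (0.89). LYVE1 was most like the macrophage genes TREM2 and MARCO (0.99 each), RELN like the glial genes GJC3 (0.93) and FA2H (0.92), and PLVAP like SH2B2 (0.88). The genes that led PROX1-positive over PROX1-negative PECAM1-positive cells, besides MMRN1, were DAPK1 (120 against 23.6 CPM in the glaucoma library), RASSF9, SEMA3D, ACKR2, a scavenging chemokine receptor of lymphatic endothelium (139 against 34.2 CPM), CCL21, GPM6A, PTPN3, NPNT and KCNN4. The rule for these genes also asked for the same direction in the normal library, where all but CCL21 of the 10 genes so ranked had too few UMIs to be called.

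Of the VEGF ligands and co-receptors, PGF and NRP2 stood higher in the CCL21-high class and VEGFC and NRP1 in the RNASE1-high class, in both libraries. NRP2 was also in the marker set from which the CCL21-high class was named, so its order is no separate result. PGF, a ligand of FLT1, was at 307 and 246 CPM in the CCL21-high class of the glaucoma and normal library and at 24.96 and 31.1 CPM in the RNASE1-high class, where FLT1 was high. VEGFC, the ligand of FLT4, was at 227 and 231 CPM in the RNASE1-high class and at 45.6 and 22.4 CPM (92 and 2 UMIs) in the CCL21-high class, where FLT4 was higher. NRP2, the co-receptor of FLT4, was at 361 and 470 CPM in the CCL21-high and 64.0 and 107 CPM in the RNASE1-high class, and NRP1, the co-receptor of KDR, was at 31.7 and 56.0 CPM and at 201 and 370 CPM. Of the other 5 genes of this list in the files, VEGFB was at 89.3 and 112 CPM in the CCL21-high and 46.7 and 26.2 CPM in the RNASE1-high class, VEGFA had 50 and 2 UMIs and 24 and 9 UMIs, and VEGFD, CCBE1 and ADAMTS3 had at most 2 UMIs in any of the 4 sets. Between the libraries, in PECAM1-positive cells, 1 of 6 measured VEGF ligands and co-receptors was called higher, PGF at 2.07 (1.63 to 2.54), and 0 lower. Of all features 3.87% were called higher and 5.36% lower there. Within the CCL21-high class PGF was at 0.32 (-0.30 to 1.00).

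Among regulators of lymphatic fate 0 of 6 measured genes were called in PECAM1-positive cells, where 3.87% of all features were called higher and 5.36% lower. NR2F2, which acts with PROX1, had 619 and 839 CPM in the CCL21-high class and 113 and 144 CPM in the RNASE1-high class, and FOXC2, a gene of lymphatic valves, had 31 and 0 UMIs in the first and 0 in the second. Of other lymphatic endothelial genes 2 of 6 measured were called higher in PECAM1-positive cells, CCL21 at 2.82 (2.71 to 2.92) and FABP4 at 1.87 (1.42 to 2.36), and 0 lower. Within the CCL21-high class 0 of 5 were called higher and STAB1, the relative of STAB2, was called lower at -1.11 (-1.56 to -0.63). Of all features 3.79% were called higher and 4.72% lower in that class.

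Of 12 blood endothelial genes measured in PECAM1-positive cells EGFL7 was called higher at 1.01 (0.95 to 1.08) and GJA5, a connexin of arteries, lower at -1.89 (-2.37 to -1.42). Of all features 3.87% were called higher and 5.36% lower in these cells. In the angiopoietin axis 3 of 6 measured genes were called lower, ANGPT1, ANGPT2 and SVEP1, where 5.36% of all features were, with a list median of -0.67 against -0.04 over all features. Within the CCL21-high class 0 of 2 measured genes of this list were called lower. ANGPT1 had only 13 glaucoma and 0 normal UMIs in the CCL21-high class and 14 and 7 in the RNASE1-high class, so most of its 117 and 196 UMIs in PECAM1-positive cells lay outside endothelium. Of the 13 genes known for Schlemm's canal endothelium 11 were measured, 0 were called higher and ANGPT2 lower at -1.19 (-1.64 to -0.74). Within the CCL21-high class MGP, 1 of 7 measured genes of this list, was called higher, where 3.79% of all features were. It was at 1267 against 369 CPM, log2 ratio 1.78 (1.29 to 2.32). MGP, an inhibitor of calcification, was also among the markers of the trabecular meshwork-like clusters, and over PECAM1-positive cells it was at -0.75 (-0.78 to -0.72).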

How the data were processed

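The authors deposited raw counts, UMIs per gene and barcode in 1 matrix per library, made with Cell Ranger 6.0.0 per the file headers; the submitters' processing notes name Cell Ranger 4.0 and Seurat 3.0. The lowest barcode had 500 UMIs. The genome build is not given in the sources used here. Of 24037 features 15580 had a symbol in the files and 873 took one from a reference table of gene names. Cells with at least 500 genes and under 20% mitochondrial UMIs were kept, without the 312 and 57 doublets that Scrublet called (3.61% and 1.05%, below the 8.50% and 5.62% expected from loading). Cells of both libraries were clustered together (scanpy 1.11.5, igraph 0.11.9, Python 3.11.15; 2000 variable genes, 30 components, 15 neighbours, Leiden resolution 1). Clusters were named from marker sets without the 10 genes. The rule that split endothelium into CCL21-high and RNASE1-high classes was settled after the clusters were seen, the 10 genes were among the genes clustered, and clusters whose leading genes went against a name stayed unnamed. A marker needed 2-fold over the median cluster with 10 CPM added and a UMI in 10% of cells. Summed UMIs gave CPM, ratios and exact intervals (scipy 1.17.1), and the ratio code was tested on simulated data. Named genes were the 10 genes, the 3 most similar per gene, the 10 leading PROX1-positive cells, and of the fixed pathway lists those called or bearing on a named result. The 10 genes and all lists were chosen with earlier results of these data known. Alternatives were 11 planned and 2 added settings. Whether tissue of several animals was pooled is unknown, and no replicate exists.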

Additional observations from a re-analysis of the deposited data

How the results depend on the processing

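Of 420 values of 50 results under 11 planned and 2 added alternatives, most were counted as kept. For a gene not called in the main run, kept means only that it was again not called, whatever its direction. Among the planned ones 77 of the main comparisons' values were kept and 15 moved. Among single genes 282 were kept, 10 lost a call, 9 gained one, 1 moved and 1 turned. The added ones, which leave out or keep the CCL21-high class, changed more: of the main comparisons' values 1 kept, 4 moved and 1 turned, and among single genes 10 kept, 6 lost a call, 1 moved and 2 turned. With 1 library per group there was no replicate to leave out. No paired analysis was possible because each group is 1 library and no replicate numbers exist. The limit in the CCL21-high class is its 33 normal cells. Where a value changed the cause was not tested.

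The log2 ratio of the PECAM1-positive share, 1.13 (0.96 to 1.29), was 1.39 with at least 1000 genes and under 10% mitochondrial UMIs. It was 1.44 with at least 2 PECAM1 UMIs and 0.42 with CDH5 as the gate. Among the cells with at least 1000 UMIs that thinning kept, it was 1.30. There the PECAM1 UMI was that before thinning, so 1.30 is not a share at equal depth. The log2 ratio of the CCL21-high share, 2.25, was 3.02 with CDH5. The count of the 10 genes called higher in PECAM1-positive cells, 3, was 6 with CDH5 and 0 outside the CCL21-high class. The share of all features called was not taken under the alternatives. STAB2 lost its call there with every deposited barcode (0.86), with 2 PECAM1 UMIs (0.84) and thinned (0.58).

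The count called lower in the CCL21-high class, 1, was 2 with every barcode (KDR at -1.01 added) and 2 with a minimum of 10 UMIs (PLVAP added at -2.11). It was 0 with the stricter cell filter and 0 without the top barcode. KDR in muscle-like cells had too few UMIs under the stricter filter (-1.64).

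Observed over expected cells with MMRN1 and DNASE1L3, 2.44, was 1.89 with 2 PECAM1 UMIs and 1.09 within the CCL21-high class. The ratio for MMRN1 and FLT1, 0.25, was 0.10 thinned and turned to 1.27 within that class. In PROX1-positive cells the count called higher, 4, was 1 thinned and 0 within the class, and the count called lower, 1, was 2 with 2 PECAM1 UMIs (PLVAP added at -1.78), 0 thinned and 0 within the class. DNASE1L3 turned to -0.81 thinned, from 10 PROX1-positive cells, and to -0.18 within the class, where FLT1 turned to 0.17.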

Other observations

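CCL21, the gene after which the first endothelial class was called, was also counted in non-myelinating Schwann cell-like cells, at 250.1 CPM (219.8 to 283.5) in the glaucoma and 402.7 CPM (361.6 to 447.2) in the normal library, with a UMI in 15.2% and 27.0% of cells. These cells had 0 and 1 PROX1 UMIs and 2 and 0 MMRN1 UMIs.

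Some small clusters also held PLVAP or KDR. The 30 cells of an unnamed cluster led by CFD, S100A8 and S100A9, genes of monocytes and neutrophils, had PLVAP at 97.7 CPM (20.1 to 285) in the glaucoma and 159 CPM (63.9 to 328) in the normal library, from 3 and 7 UMIs in 15 cells each. Another unnamed cluster, of 30 glaucoma cells led by TAC1, CRHBP and MYOC, had KDR at 94.2 CPM (50.1 to 161), with a UMI in 11 cells. The 12 surface epithelium-like cells, all of the normal library, had KDR at 110 CPM (54.9 to 197) from 11 UMIs, of which 1 cell gave 36.4%. These values were picked after they were seen and rest on few cells.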
